A study of Mus musculus with 144 samples.

Results

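The enzymes described here are the 8 genes of the pentose phosphate pathway, taken by name from the 55359 genes counted in every library: *G6pdx*, *Pgls*, *Pgd* and *H6pd* for the oxidative branch, and *Rpia*, *Rpe*, *Tkt* and *Taldo1* for the non-oxidative branch. They were taken for their place in the pathway, with earlier results of these data known, and all 8 passed the filter on low counts in every comparison. The libraries came from primary hepatocytes of male, 28-day-old mice, cultured on collagen in medium with dexamethasone and given either DMSO vehicle or 10 nM TCDD, a persistent ligand of the aryl hydrocarbon receptor (AHR). By their labels and the study's methods, WT cells (strain C57BL/6NCrl) carry an intact *Pkm* locus, and PkmΔDRE cells are homozygous for a CRISPR-Cas9 deletion of a GCGTG motif, the core of a dioxin response element (DRE), in an intron of *Pkm*, in a line backcrossed to C57BL/6N. Both were harvested at 9 times between 2 and 120 h, which gave 36 groups of 4 libraries, called replicates 1 to 4 here in the order of their titles. The labels do not say that a position in this order marks a shared preparation, although libraries at the same position resembled each other across some groups. At 2 h under the PkmΔDRE label, for example, *Pkm* was at 281, 127.8, 61.2 and 50.2 CPM in vehicle and 269, 99.6, 47.3 and 63.2 CPM in TCDD replicates 1 to 4. An arm is 1 label with 1 treatment. The labels do not say whether the 4 libraries of a group came from separate animals or wells, so p-values measure the spread between these libraries, which may be technical.

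The oxidative branch takes glucose 6-phosphate out of glycolysis, reduces NADP+ to NADPH and ends in ribulose 5-phosphate. The non-oxidative branch interconverts pentose phosphates and, through transketolase and transaldolase, returns carbon to glycolysis as fructose 6-phosphate and glyceraldehyde 3-phosphate, or runs backwards to make ribose 5-phosphate for nucleotides. In liver, the NADPH serves fatty acid and cholesterol synthesis, cytochrome P450 reactions and the regeneration of reduced glutathione and thioredoxin. *G6pdx* encodes the rate-limiting glucose 6-phosphate dehydrogenase and *H6pd* its counterpart in the lumen of the endoplasmic reticulum, which feeds NADPH to 11β-hydroxysteroid dehydrogenase 1.

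Counts on genes ran from 13588848 to 30719161 pairs per library, with a median of 18011825. *Pkm*, the targeted gene, went against the genotype labels: at 8 h it was at 41.8 to 80.8 CPM (counts scaled to the total of a library, TMM-adjusted) in the 4 vehicle and 29.3 to 62.6 CPM in the 4 TCDD libraries labelled WT, but at 37.8 to 81.5 CPM and 109.2 to 169 CPM in those labelled PkmΔDRE. These counts do not separate the *Pkm* isoforms. Genotypes are therefore given throughout as labels only. *Cyp1a1*, the canonical AHR target, was at most 4.06 CPM in the 8 h vehicle libraries and at least 1651 CPM in the 8 h TCDD libraries under both labels. It was out of step in 4 libraries labelled WT, at 3285 and 1717 CPM in vehicle replicate 1 at 48 h and replicate 3 at 96 h, and at 1.15 and 29.2 CPM in TCDD replicate 4 at 2 h and replicate 4 at 72 h. These 4 are not the only ones that stood apart from their group. Others include WT-labelled TCDD replicate 4 at 4 h (10.2 CPM, beside 126.5 to 324.7 CPM) and vehicle replicate 4 at 24 h (53.5 CPM, beside 0.72 to 2.16 CPM). Strand 1 held 63.3% of the stranded counts in WT-labelled TCDD replicate 1 at 96 h, against a median of 50.6%. In PkmΔDRE-labelled vehicle, replicate 4 of 4 h and replicate 4 of 96 h went against their hour labels. Over 9573 genes with a mean of at least 5 CPM, the one labelled 4 h was closest to the mean profile of 96 h (r = 0.967, against 0.636 with 4 h) and the one labelled 96 h to that of 4 h (r = 0.972, against 0.627 with 96 h), and no other library was more than 2 harvest times away from its label. This pair is called the displaced pair below. Their labels were kept, and results that rest on them are given with and without both.

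The 8 genes lay far apart in level. On the scale of CPM per kb of exon, the median over the 36 group means was 236 for *H6pd*, 121.1 for *Taldo1* (transaldolase), 104.8 for *Pgd* (6-phosphogluconate dehydrogenase), 73.9 for *Tkt* (transketolase), 19.1 for *Pgls* (6-phosphogluconolactonase), 9.29 for *G6pdx*, 4.27 for *Rpe* (ribulose-phosphate epimerase) and 1.72 for *Rpia* (ribose 5-phosphate isomerase). The ranges of group means of neighbours in this order overlapped except between *Tkt*, whose lowest group mean was 37.5 CPM per kb, and *Pgls*, whose highest was 33.7. *G6pdx* had the widest range, 20-fold between its lowest and highest group mean in CPM, and *H6pd* the narrowest, 1.63-fold. *Rpia* spanned 6.52-fold, *Pgd* 5.3-fold, *Rpe* 4.39-fold, *Tkt* 4.02-fold, *Pgls* 3.08-fold and *Taldo1* 2.68-fold. The smallest count in any library was 24 pairs for *Rpe* and 70 pairs for *Rpia*, against 2222 or more for *Pgd*, *Tkt*, *Taldo1* and *H6pd*. Counting error therefore weighs more on *Rpe* and *Rpia* than on these.

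The promoter sequences of *G6pdx*, *Pgd*, *Tkt* and *Taldo1* are shown because these genes reached their highest group means at 48 or 72 h in all 4 arms . The sequences are RefSeq windows of the GRCm38.p6 assembly from 250 bases before to 50 bases after the annotated start, on the gene's strand, and all 8 genes matched (9 windows, 2 of them for *Pgd*). Capitals mark matches on either strand to GCGTG, the DRE core, and to TGACNNNGC, the core of the antioxidant response element bound by NRF2. Each sequence follows its gene's name, with positions chrX:74428831-74429130 for *G6pdx* (minus strand), chr4:149166656-149166955 for *Pgd* (minus strand), chr14:30548881-30549180 for *Tkt* (plus strand) and chr7:141391910-141392209 for *Taldo1* (plus strand).
G6pdx: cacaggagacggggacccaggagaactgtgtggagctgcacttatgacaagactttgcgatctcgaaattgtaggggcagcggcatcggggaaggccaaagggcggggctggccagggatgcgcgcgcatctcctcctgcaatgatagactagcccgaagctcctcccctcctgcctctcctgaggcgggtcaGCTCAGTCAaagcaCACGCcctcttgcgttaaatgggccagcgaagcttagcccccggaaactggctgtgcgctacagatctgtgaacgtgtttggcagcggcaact
Pgd: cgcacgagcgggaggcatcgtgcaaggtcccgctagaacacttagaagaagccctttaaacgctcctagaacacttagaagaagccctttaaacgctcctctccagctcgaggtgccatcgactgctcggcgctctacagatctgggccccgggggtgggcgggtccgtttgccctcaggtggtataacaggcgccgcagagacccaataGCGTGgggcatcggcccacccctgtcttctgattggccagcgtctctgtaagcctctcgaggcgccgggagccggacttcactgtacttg
Tkt: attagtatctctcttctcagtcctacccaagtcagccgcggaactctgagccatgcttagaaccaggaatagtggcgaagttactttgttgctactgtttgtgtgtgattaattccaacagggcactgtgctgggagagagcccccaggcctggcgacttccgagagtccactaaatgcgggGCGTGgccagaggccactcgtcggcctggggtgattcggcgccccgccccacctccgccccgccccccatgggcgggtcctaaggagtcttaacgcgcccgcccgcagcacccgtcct
Taldo1: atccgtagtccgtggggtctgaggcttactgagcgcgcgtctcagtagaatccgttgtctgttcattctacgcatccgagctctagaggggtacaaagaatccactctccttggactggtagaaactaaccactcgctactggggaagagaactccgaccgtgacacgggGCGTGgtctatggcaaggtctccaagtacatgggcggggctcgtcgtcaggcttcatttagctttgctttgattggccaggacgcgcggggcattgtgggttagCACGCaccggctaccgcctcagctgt

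GCGTG was present in 32.4% and TGACNNNGC in 12.4% of all 32841 promoter windows of this length. The *G6pdx* window held both, GCGTG beginning at base -43 and TGACNNNGC at base -57 from the start, each on the other strand. A single GCGTG began at base -40 in the *Pgd* window shown and at base -68 in that of *Tkt*, and *Taldo1* had one at base -80 and one on the other strand at base 25. Of the windows not shown, those of *Pgls* and *Rpia* held one GCGTG each, at bases -205 and -74, the latter on the other strand. The second *Pgd* window held TGACNNNGC at base 4, and those of *H6pd* and *Rpe* held neither. Several windows lie inside their gene and do not cover its outermost annotated 5' end. Among those shown, they are the windows of *G6pdx* (end at 74429194) and *Tkt* (end at 30548359). Among those not shown, they are the second *Pgd* window (chr4:149166033-149166332, minus strand, end at 149166771) and the *H6pd* window (chr4:150003187-150003486, minus strand, end at 150009023). No match overlapped another, and a match describes letters in the window, not binding.

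Most calls among the 8 genes came with time in culture, with *G6pdx*, *Pgd*, *Tkt* and, under the WT label, *Rpe* rising and *Rpia* and *Pgls* falling. Each later harvest was tested against 2 h within the 36 libraries of a label and treatment with the edgeR quasi-likelihood test, and a gene was called at a Benjamini-Hochberg adjusted p under 0.05 over all genes tested and a fold change of at least 1.5. Of the 64 tests (8 genes, 8 hours) in each arm, 32 were called in WT-labelled vehicle, 38 in WT-labelled TCDD, 19 in PkmΔDRE-labelled vehicle and 32 in PkmΔDRE-labelled TCDD libraries. These are 50%, 59.4%, 29.7% and 50% of the members' tests, beside 41.6%, 37.8%, 29% and 38.8% over all genes and hours in the same arms, so in PkmΔDRE-labelled vehicle the share was that of the background. Upward calls numbered 21, 26, 10 and 22, or 32.8%, 40.6%, 15.6% and 34.4% beside a background of 23.4%, 19.5%, 15.7% and 20.3%. Downward calls numbered 11, 12, 9 and 10, or 17.2%, 18.8%, 14.1% and 15.6% beside 18.2%, 18.3%, 13.3% and 18.5%. The 8 tests of a gene in an arm share the 2 h libraries. The median log2 fold change over all genes lay between -0.08 and 0.24 in these comparisons.

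**Figure D1:**
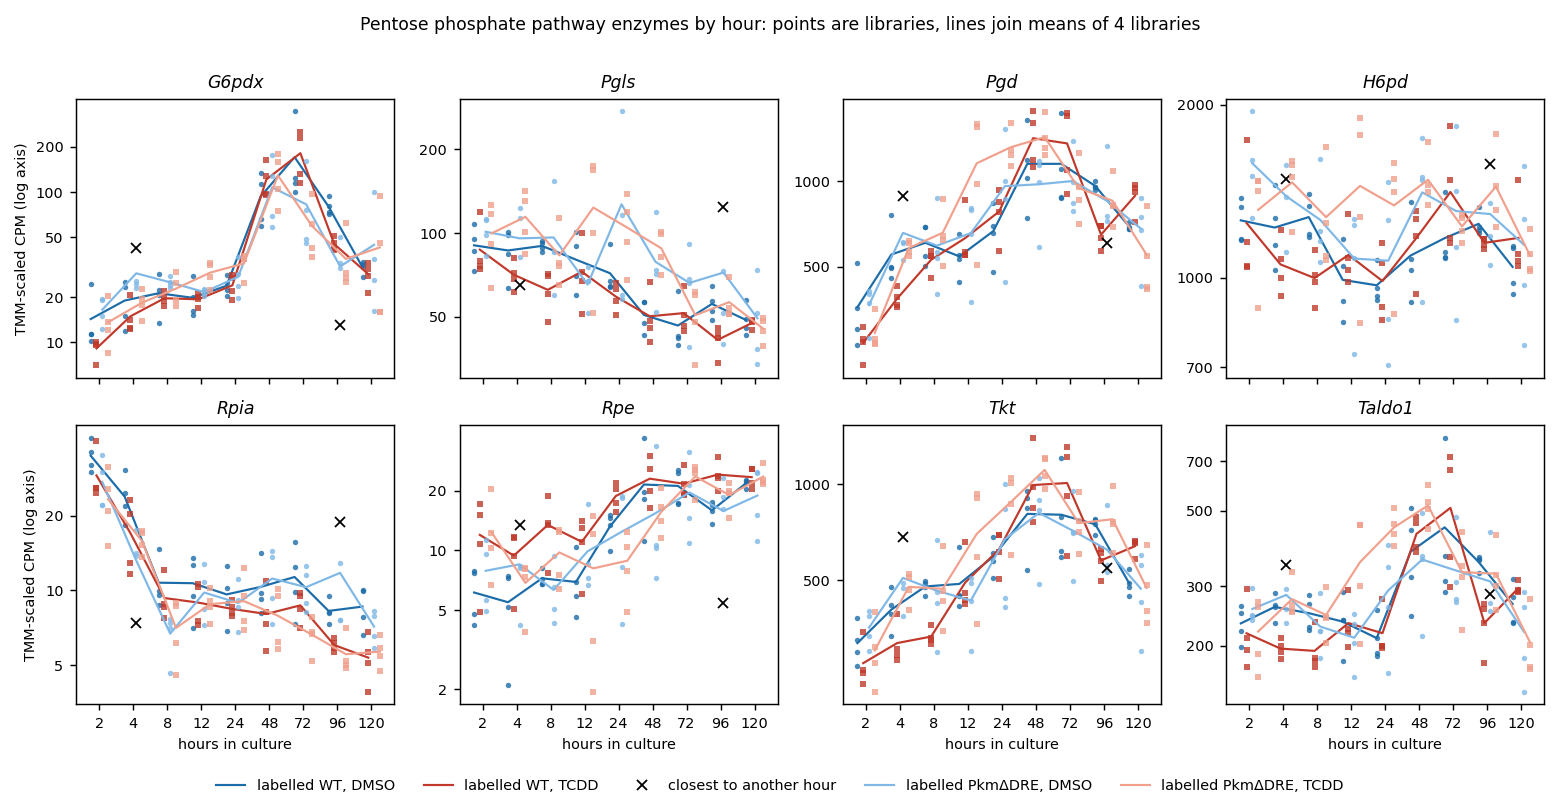
Level of each of the 8 genes (CPM, log axis) against harvest hour, 1 panel per gene, with a point per library, lines through the means of 4 libraries in each arm (label and treatment), and crosses for the displaced pair, which the means include. The means of *G6pdx*, *Pgd* and *Tkt* are highest at 48 or 72 h in each arm, *Rpia* drops by 8 h and stays low, and *H6pd* stays within a 1.63-fold range of group means. *Pgls* is lower at 120 h than at 2 h in each arm, but is highest at 24 h (vehicle) and 12 h (TCDD) under the PkmΔDRE label.

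The cells in these cultures changed over the same hours. The summed level of 6 hepatocyte markers (*Alb*, *Ttr*, *Apoa1*, *Serpina1a*, *Fgb*, *Cps1*) ran from 117900 to 216800 CPM in the 2 h libraries and from 3085 to 18080 CPM at 120 h. The 5 cholangiocyte markers summed to 55.7 to 146 CPM at 2 h and 106.9 to 1382 CPM at 72 h, and the 6 stellate and fibroblast markers to 4.93 to 13.5 CPM and 4.96 to 85.2 CPM. The 8 macrophage markers went from 275 to 779 CPM at 2 h to 80.9 to 212 CPM at 72 h, the 5 endothelial markers from 164 to 466 CPM to 51.2 to 242 CPM, and the 3 erythroid markers from 113.7 to 347 CPM to 1.21 to 5.85 CPM. All 33 markers were found and none was at 0 in every library. Their part in the changes of the pathway with time was not tested, and in bulk RNA fewer cells of a type and less RNA per cell cannot be told apart.

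*G6pdx* had the largest rises of the 8 genes. In WT-labelled vehicle libraries it was at 10.1, 11.3, 11.4 and 24.3 CPM at 2 h, at 20.5 to 27.9 CPM at 24 h, at 59.9, 66.5, 113.8 and 133.5 CPM at 48 h, and at 99.8, 114.8, 124.8 and 345 CPM at 72 h. No library of 48 or 72 h overlapped with those of 2 or 24 h. The log2 fold change at 72 h against 2 h was 3.39 ± 0.36 (SE, adjusted p = 1.5e-09), and 2.82 ± 0.31 without replicate 3, the one at 345 CPM. With TCDD the 4 values went from 7.03, 9.60, 9.67 and 10.1 CPM at 2 h to 114.7, 132.5, 229 and 249.9 CPM at 72 h, a log2 fold change of 4.22 ± 0.26 (adjusted p = 7.95e-15).

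Under the PkmΔDRE label *G6pdx* was highest at 48 h, with 58.3, 69.2, 127.1 and 176 CPM in vehicle and 74.7, 105.4, 158 and 179 CPM in TCDD libraries. The log2 fold changes against 2 h were 2.59 ± 0.45 (adjusted p = 5.89e-05) and 3.14 ± 0.44 (adjusted p = 3.09e-07). The step between 24 and 48 h, a contrast added after the data were examined, was called for *G6pdx* in all 4 arms, at 1.94 ± 0.34 and 2.32 ± 0.24 for the WT label and 1.98 ± 0.44 and 1.92 ± 0.42 for the PkmΔDRE label (vehicle and TCDD, log2 scale). Over all genes 3.93%, 4.22%, 1.4% and 7.08% were called upward in this step. The third of these calls was lost without replicate 1 or 2 of 24 h or replicate 1 or 3 of 48 h, at 1.63 to 2.23 over all 36 libraries left out in turn.

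After its peak *G6pdx* came down. From 72 to 120 h, also an added contrast, it fell by 2.42 ± 0.34 (adjusted p = 6.14e-05) in WT-labelled vehicle and by 2.68 ± 0.24 (adjusted p = 5.01e-09) in WT-labelled TCDD libraries on the log2 scale. The log2 fold changes under the PkmΔDRE label were -0.89 ± 0.43 and -0.48 ± 0.41, with adjusted p of 0.67 and 0.674. Over all genes 2.76%, 8.47%, 0.0564% and 2.54% were called downward in the 4 arms. The 120 h libraries of that label were spread widely, at 16.1, 26.2, 35.7 and 100.3 CPM in vehicle and 15.88, 15.92, 45.8 and 93.8 CPM with TCDD, against 27.2 to 34.2 CPM in WT-labelled vehicle libraries. Whether the labels differed in these time courses was not tested.

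*Pgd*, which makes the second NADPH of the branch and ribulose 5-phosphate, was called in 6, 7, 4 and 8 of 8 hours (WT-labelled vehicle and TCDD, then PkmΔDRE-labelled vehicle and TCDD), all upward. *G6pdx* was called upward in 4, 7, 3 and 6 hours, of which the one at 12 h in the last arm held in 4 of 36 fits with 1 library left out. In PkmΔDRE-labelled TCDD libraries *Pgd* went from 267, 271, 279 and 355 CPM at 2 h to 545, 564, 605 and 617 CPM at 4 h and 1238, 1313, 1427 and 1749 CPM at 48 h. These 3 sets of values did not overlap. The log2 fold changes were 1.06 ± 0.27 at 4 h (adjusted p = 0.0109) and 2.19 ± 0.28 at 48 h (adjusted p = 4.37e-08), and the 4 h call was the earliest of any member in any arm. At 48 h the other arms had log2 fold changes of 1.51 ± 0.23 and 2.3 ± 0.22 (WT label, vehicle and TCDD) and 1.29 ± 0.32 (PkmΔDRE label, vehicle).

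*Pgls*, the lactonase between *G6pdx* and *Pgd*, moved the other way. WT-labelled vehicle libraries held 72.9, 85.97, 95.1 and 107.4 CPM at 2 h and 39.6, 41.95, 42.5 and 61.9 CPM at 72 h, without overlap, a log2 fold change of -1.15 ± 0.19 (adjusted p = 4.36e-06). It was called downward in 4, 5, 1 and 3 of 8 hours, never upward. At 120 h the fall was called in all 4 arms, by 1.07 ± 0.19, 1.00 ± 0.20, 1.23 ± 0.40 and 1.30 ± 0.29. Under the PkmΔDRE label the highest group means were not at 2 h, but at 24 h in vehicle (126.9 CPM) and at 12 h with TCDD (123.5 CPM). PkmΔDRE-labelled vehicle libraries were uneven at 24 h, from 57.7 to 274 CPM. Without the displaced pair the log2 fold change of that arm at 96 h became -1.15 ± 0.40 (adjusted p = 0.0214), from -0.70 ± 0.40 (adjusted p = 0.172).

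*H6pd* had the highest level per length and the narrowest range. Its 36 group means ran from 971 to 1583 CPM (185 to 302 CPM per kb), and the typical SD within a group was 14.7% of the mean. In 32 tests against 2 h it was called once, downward, at 120 h in PkmΔDRE-labelled vehicle (log2 fold change -0.67 ± 0.28, adjusted p = 0.048), a call that was kept in 10 of 36 fits with 1 library left out. The 4 libraries were at 1270, 1507, 1607 and 1949 CPM at 2 h and at 764, 971, 1267 and 1565 CPM at 120 h, so the groups overlapped. In WT-labelled vehicle 4 of 8 hours passed the adjusted p alone, all lower. RLE scaling and DESeq2 each called *H6pd* lower at 24 h in that arm (-0.63). Both also called it at 12 and 24 h in PkmΔDRE-labelled vehicle (-0.76 and -0.77). Without the displaced pair it was called there at 24 h, at -0.75 ± 0.28 (adjusted p = 0.0353), from -0.70 (adjusted p = 0.0549).

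**Figure D2:**
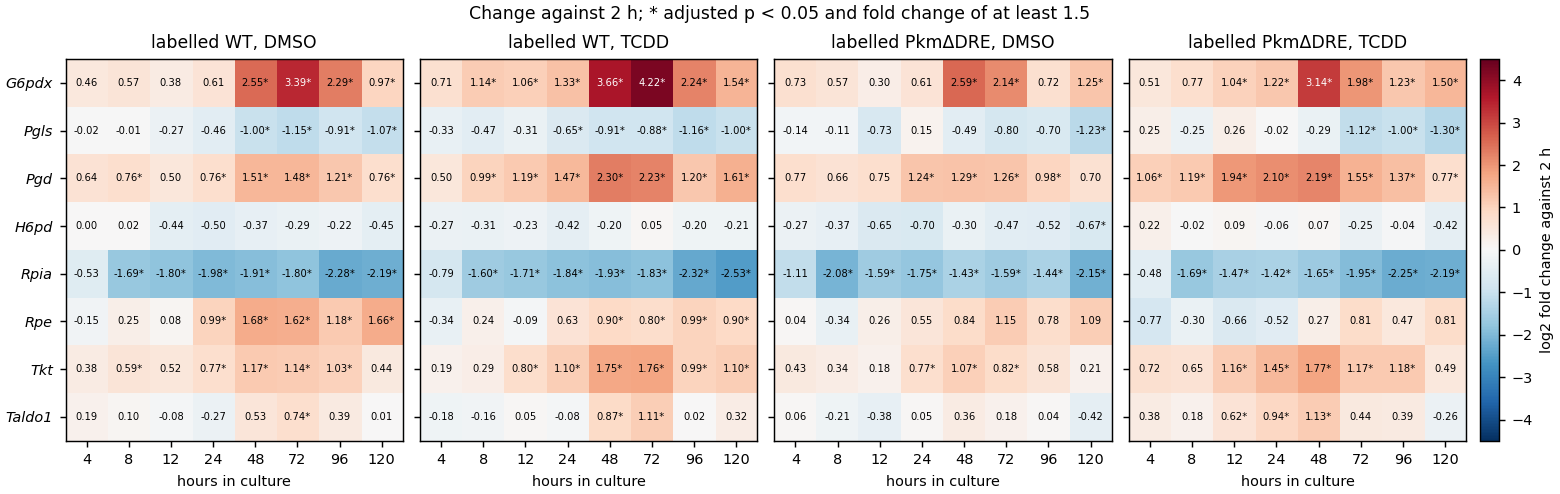
Heat map of log2 fold change against 2 h (colour scale, log2 units) for the 8 genes in rows and the 8 later harvest hours in columns, 1 panel per arm, with an asterisk for adjusted p under 0.05 and a fold of at least 1.5. The *G6pdx* cells reach 3.39 at 72 h in WT-labelled vehicle and 4.22 at 72 h in WT-labelled TCDD, *Rpia* is negative in every cell, and 1 of 32 *H6pd* cells carries an asterisk.

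In the non-oxidative branch *Rpia*, which makes ribose 5-phosphate from ribulose 5-phosphate, fell early and stayed down. WT-labelled vehicle libraries were at 30.1, 32.2, 36.2 and 41.3 CPM at 2 h, at 18.3, 21.9, 24.8 and 30.6 CPM at 4 h and at 8.78, 9.60, 9.91 and 14.7 CPM at 8 h. By 8 h all 4 libraries were below those of 2 h, with a log2 fold change of -1.69 ± 0.24 (adjusted p = 1.53e-06), and at 120 h it was -2.19 ± 0.25. *Rpia* was called downward in 7 of 8 hours in every arm, the exception being 4 h. At 120 h the fall was by 2.53 ± 0.23 with TCDD under the WT label, and by 2.15 ± 0.34 and 2.19 ± 0.28 in vehicle and TCDD under the PkmΔDRE label.

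*Rpe*, which converts the same ribulose 5-phosphate to xylulose 5-phosphate, had the reverse course under the WT label. Vehicle libraries held 4.20, 4.76, 7.65 and 7.89 CPM at 2 h and 17.1, 17.3, 24.6 and 25.4 CPM at 72 h, which did not overlap. The log2 fold change was 1.62 ± 0.31 (adjusted p = 3.82e-05), and *Rpe* was called upward from 24 h onwards in vehicle (5 hours) and from 48 h onwards with TCDD (4 hours). With TCDD the calls at 48, 72 and 120 h were lost without replicate 4 of 2 h, one of those out of step in *Cyp1a1*, at 0.64 to 1.11, 0.55 to 1.00 and 0.62 to 1.11 over all 36 libraries left out in turn, and the one at 72 h also without replicate 1 of 2 h or replicate 4 of 72 h. It had no call in 16 tests under the PkmΔDRE label, where log2 fold changes ran from -0.77 to 1.15 and the standard errors from 0.37 to 0.49. Its group means went from 7.88 CPM at 2 h to 18.9 CPM at 120 h in vehicle and from 12.4 to 23.5 CPM with TCDD, and whether the labels differed in this was not tested. *Rpe* was called upward in PkmΔDRE-labelled TCDD libraries at 72 and 120 h without the filter on low counts (0.96 ± 0.35 at both) and at 48, 72 and 96 h with a covariate for uniquely mapped pairs that fell outside genes (0.89 ± 0.34, 1.00 ± 0.31 and 0.93 ± 0.33). Without the displaced pair *Rpe* was called at 72 h in PkmΔDRE-labelled vehicle, at 1.14 ± 0.46 (adjusted p = 0.0419).

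*Tkt*, the thiamine-dependent enzyme that moves 2-carbon units between sugars, followed *Pgd*. Over the 36 group means of log2 CPM the Pearson r between *Tkt* and *Pgd* was 0.96, the highest of the 28 pairs of members. In WT-labelled vehicle libraries *Tkt* went from 269.8, 298, 325 and 381 CPM at 2 h to 538, 840, 902 and 949.7 CPM at 48 h, without overlap, a log2 fold change of 1.17 ± 0.19 (adjusted p = 3.62e-06). At 48 h it was 1.75 ± 0.22 with TCDD under the WT label and 1.07 ± 0.30 and 1.77 ± 0.26 in vehicle and TCDD under the PkmΔDRE label, and it was called upward in 5, 6, 3 and 5 hours. The call at 24 h in PkmΔDRE-labelled vehicle (0.77 ± 0.30, adjusted p = 0.0446) was lost without the displaced pair (0.72 ± 0.30, adjusted p = 0.0589).

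*Taldo1*, which moves 3-carbon units, was called in 1, 2, 0 and 3 of 8 hours, all upward. The call in WT-labelled vehicle at 72 h (0.74 ± 0.23, adjusted p = 0.00642) rested on replicate 3, at 821 CPM beside 287, 311 and 368 CPM, and was 0.29 ± 0.19 without it (adjusted p = 0.186). With TCDD the 72 h libraries of the WT label were at 299, 366, 658 and 718 CPM against 173, 194, 210 and 293 CPM at 2 h, a log2 fold change of 1.11 ± 0.22 (adjusted p = 0.000106). PkmΔDRE-labelled TCDD libraries gave 0.62 ± 0.25, 0.94 ± 0.25 and 1.13 ± 0.25 at 12, 24 and 48 h, the first of which held in 7 of 36 fits with 1 library left out.

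The courses of the members fell into several patterns. Beyond *Pgd* and *Tkt*, group means of *G6pdx* were correlated with those of *Tkt* (r = 0.86), *Pgd* (r = 0.84) and *Taldo1* (r = 0.80), enzymes of both branches. *Pgls* and *Rpe* had r = -0.87, *Pgls* and *Rpia* r = 0.54, and *H6pd* had r between -0.22 and 0.51 with every other member. Among genes with a symbol and a mean of at least 10 CPM, the patterns most like that of *G6pdx* were those of *Mlec* (r = 0.92), *Racgap1* (0.91) and *Ncapd2* (0.90). Those most like *Pgd* were *Slc48a1* (0.98), *Tkt* and *Dmwd* (0.93), those most like *Rpia* were *Slc2a1* (0.95), *Got1* (0.93) and *Ppp1r13b* (0.92), and those most like *Taldo1* were *Prdx1* (0.91), *Pir* (0.89) and *Coro1b* (0.87). These coefficients describe 36 group means that share harvest times and libraries.

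The balance of the branches was followed as the log2 ratio of the summed CPM per kb of the 4 oxidative to that of the 4 non-oxidative genes in each library, as a description without a test. In WT-labelled vehicle it started at 1.04 ± 0.09 (SD, n = 4) at 2 h. It was 0.57 ± 0.11 by 48 h, 0.62 ± 0.33 by 72 h and 0.75 ± 0.07 in the last harvest. In WT-labelled TCDD libraries it was 1.05 ± 0.07 at 2 h and 0.59 ± 0.29 at 72 h. Under the PkmΔDRE label it went from 1.16 ± 0.19 to 0.78 ± 0.15 in vehicle and from 1.12 ± 0.16 to 0.68 ± 0.24 with TCDD between the same hours. The log2 ratio thus fell by 0.42, 0.46, 0.38 and 0.44 in the 4 arms. At 120 h it was 0.73 ± 0.12 in WT-labelled TCDD libraries, but 1.01 ± 0.11 and 0.96 ± 0.21 in vehicle and TCDD under the PkmΔDRE label, where it overlapped with 2 h.

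The direction depended on *H6pd*, which held 49.9% ± 4.3 of the summed level of all 8 genes in WT-labelled vehicle at 2 h. Without it, so that the oxidative sum holds only the cytosolic enzymes, the ratio went up from 2 to 72 h in all 4 arms, by 0.56 and 0.70 under the WT label and by 0.58 and 0.43 under the PkmΔDRE label (vehicle, then TCDD). In WT-labelled vehicle it was -0.93 ± 0.18 at 2 h and -0.37 ± 0.08 at 72 h, and with TCDD -1.11 ± 0.06 and -0.40 ± 0.10. In PkmΔDRE-labelled libraries it went from -0.97 ± 0.12 to -0.39 ± 0.14 in vehicle and from -0.97 ± 0.09 to -0.55 ± 0.10 with TCDD.

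**Figure D3:**
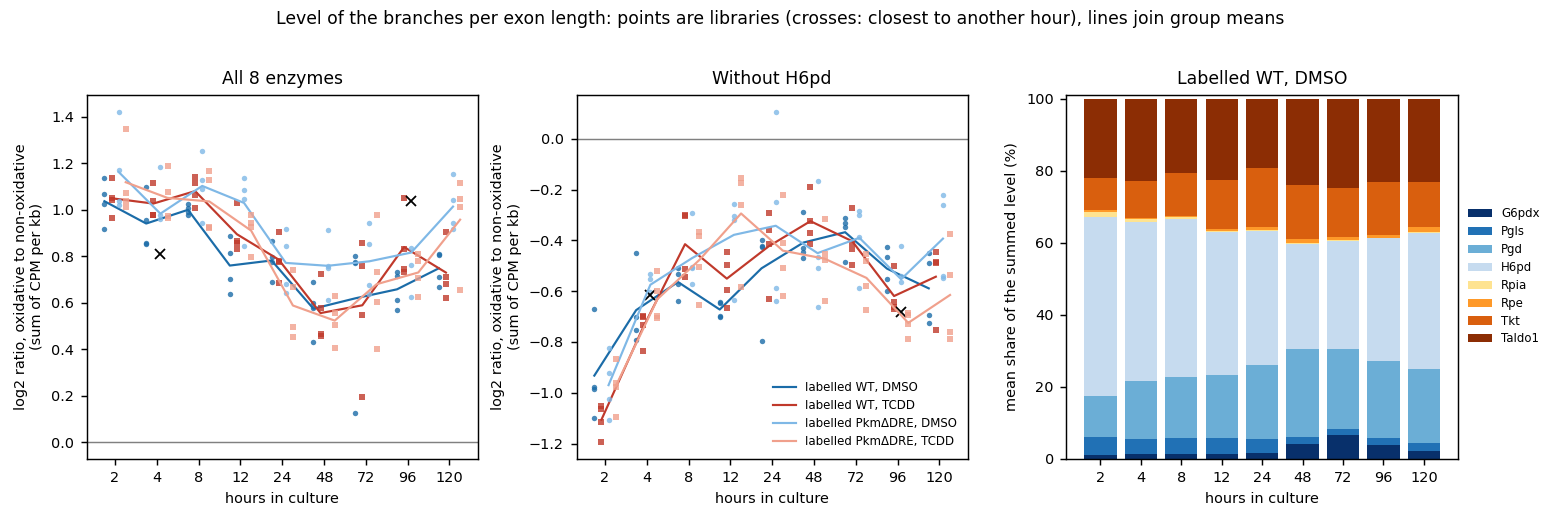
Log2 ratio of summed oxidative to non-oxidative level (CPM per kb) by hour for all 8 genes and without *H6pd*, with a point per library, lines through the means of each arm and crosses for the displaced pair, and the mean share of each gene in the summed level of WT-labelled vehicle libraries (percent). The ratio of all 8 falls between 2 and 72 h, from 1.04 to 0.62 in WT-labelled vehicle, and the ratio without *H6pd* climbs, from -0.93 to -0.37.

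TCDD was compared with vehicle at each hour, 8 libraries at a time. Under the WT label 3 of 72 tests were called (4.17% of the members' tests, beside a background of 5.98%), 2 upward for *Rpe* and 1 downward for *G6pdx*. DESeq2 also called 3, and 20 of the 72 had an unadjusted p under 0.05. Over all genes, those with such a p numbered from 166 of 12097 at 2 h to 6714 of 12392 at 8 h. The calls lay at 8 h, where 37.4% of all genes tested were called (23.8% upward, 13.6% downward), and at 96 h, where 15.1% were (10.1% upward, 5% downward). By adjusted p alone 11 of 72 passed (15.3%), 2 upward and 9 downward, and all 11 lay at 8 and 96 h. At 8 h, with 8 genes tested, *Rpe* was higher and *Pgls*, *Tkt*, *Taldo1* and *H6pd* were lower. Over all genes 45.5% passed at 8 h (25.3% upward, 20.2% downward). At 96 h *Rpe* was higher and *G6pdx*, *Pgd*, *Pgls*, *Tkt* and *Taldo1* were lower, beside 32.8% of all genes (16.7% and 16.1%).

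*G6pdx* at 96 h was at 71.6, 74.3, 80.3 and 94.5 CPM in vehicle and 41.3, 41.99, 46 and 50.6 CPM in TCDD libraries labelled WT. Every TCDD library lay below every vehicle library, and the log2 fold change was -0.78 ± 0.11 (adjusted p = 0.000793). It ran from -0.84 to -0.68 with each of the 8 libraries left out in turn, always called, but lost its call in 1 fit of the 72 libraries of the label (-0.82 ± 0.29, adjusted p = 0.186) and in that fit with 1 surrogate variable (-0.65 ± 0.28, adjusted p = 0.406). Vehicle replicate 3 and TCDD replicate 1, named above, were among these 8. The other oxidative enzymes had log2 fold changes of -0.51 ± 0.08 (*Pgd*, adjusted p = 0.00137), -0.37 ± 0.10 (*Pgls*, adjusted p = 0.0194) and -0.05 ± 0.08 (*H6pd*, adjusted p = 0.62), none of them 1.5-fold.

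*Rpe* at 96 h went the other way, from 13.5, 15.7, 16.9 and 17.5 CPM in vehicle to 19.9, 23.2, 23.8 and 29.4 CPM with TCDD under the WT label. The groups did not overlap and the log2 fold change was 0.66 ± 0.13 (adjusted p = 0.00394), which lost its call without TCDD replicate 2 and in 1 fit of the label's libraries (0.61 ± 0.28, adjusted p = 0.329). At 8 h *Rpe* was at 6.767, 6.769, 7.19 and 8.17 CPM in vehicle and 7.67, 13.4, 13.7 and 18.8 CPM with TCDD. Here 1 TCDD library lay within the vehicle range, and the log2 fold change of 0.86 ± 0.27 (adjusted p = 0.0197) lost its call without TCDD replicate 4 and became -0.14 in a fit of all 72 libraries of the label with 1 surrogate variable. Over the 9 hours, *Rpe* had a log2 fold change above 0 in all 9 under the WT label and in 5 of 9 under the PkmΔDRE label.

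Other members at 8 h under the WT label passed the adjusted p but not the fold. The share of uniquely mapped pairs on no gene also moved here, at 8.36% to 21.95% in TCDD and 4.89% to 6.00% in vehicle libraries, without overlap, and was highest in TCDD replicate 1. Without that library *Rpe* stood at 1.05 ± 0.23 (adjusted p = 0.00312), and *Pgls* (-0.63 ± 0.16) and *Tkt* (-0.60 ± 0.13) were called. With the share as a covariate *Pgls* (-0.71 ± 0.20), *Tkt* (-0.65 ± 0.15) and *Taldo1* (-0.63 ± 0.17) were called, and in 1 fit of the label *Pgls* and *Tkt* (both -0.66). Because the share did not overlap between treatments in these 8 libraries, the covariate fit cannot tell its part from that of TCDD. *Tkt* was at 448, 476, 492 and 499 CPM in vehicle and 316, 326, 331 and 362 CPM with TCDD, without overlap (log2 fold change -0.55 ± 0.12, adjusted p = 0.00298). *Pgls* had -0.56 ± 0.15 (adjusted p = 0.0107), *Taldo1* -0.40 ± 0.15 (adjusted p = 0.0378) and *H6pd* -0.39 ± 0.14 (adjusted p = 0.0343), while *G6pdx* and *Pgd* were at -0.14 ± 0.22 and -0.23 ± 0.15. At 96 h *Taldo1* (-0.54 ± 0.11, adjusted p = 0.00377) and *Tkt* (-0.32 ± 0.08, adjusted p = 0.0136) were in the same position. *Rpia* missed the adjusted threshold at 96 h (-0.40 ± 0.14, adjusted p = 0.0502) and had a log2 fold change below 0 in all 9 hours, down to -0.69. At 120 h its means were 8.61 CPM in vehicle and 5.36 CPM with TCDD, uncalled. With the covariate it was called at that hour (-0.83 ± 0.16, adjusted p = 0.02). Under the PkmΔDRE label it was below 0 in 7 of 9 hours.

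Cell type markers also moved at these hours. Over all genes under the WT label, 13.6% were called downward and 23.8% upward at 8 h, and 5% and 10.1% at 96 h. At 8 h under the WT label 5 of 7 tested macrophage markers were lower with TCDD (summed 158 to 295 CPM against 312 to 530 CPM in vehicle), and of 6 hepatocyte markers 3 were lower and 1 higher (66320 to 73990 against 75830 to 89530 CPM). At 96 h 3 of 8 macrophage markers (98.2 to 123.8 against 153 to 182 CPM), 3 of 5 endothelial markers (43.9 to 62.3 against 70.6 to 80.8 CPM) and 2 of 5 cholangiocyte markers (372 to 781 against 609 to 1330 CPM) were lower. Their part in the pathway's values was not tested.

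**Figure D4:**
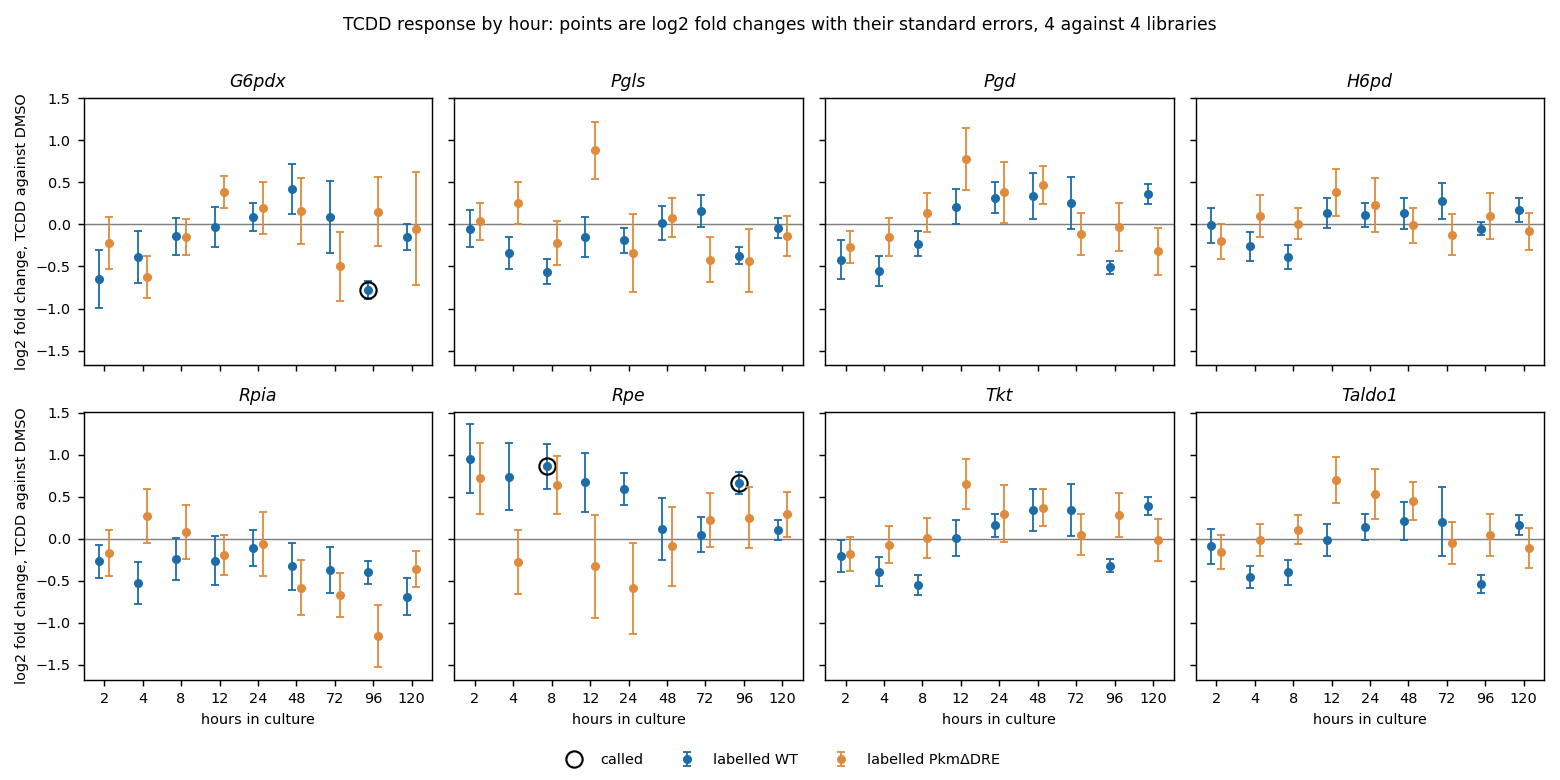
Log2 fold change of TCDD against vehicle at each hour for the 8 genes under both labels, as points with bars of 1 standard error, black circles marking calls. The 3 circles are *Rpe* at 8 and 96 h (0.86 and 0.66) and *G6pdx* at 96 h (-0.78), all under the WT label.

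Under the PkmΔDRE label edgeR and DESeq2 each called 0 of 72 TCDD tests (background 0.281%, smallest adjusted p 0.359), and 5 had an unadjusted p under 0.05. Over all genes, those with such a p numbered from 161 of 12481 at 24 h to 1717 of 12132 at 2 h. At 8 h 0.106% of all genes were called under this label. The largest log2 fold change of the 72 was that of *Rpia* at 96 h, which stood at 7.608, 7.61, 12.95 and 18.9 CPM in vehicle, the last being replicate 4 of the displaced pair, and 4.89, 5.01, 5.17 and 7.06 CPM with TCDD. The groups did not overlap, and the log2 fold change was -1.16 ± 0.37 (adjusted p = 0.617) with that library and -0.80 ± 0.27 (adjusted p = 0.198) without it. In 1 fit of the 72 libraries of the label it was -1.12 ± 0.30 (adjusted p = 0.0185), which is called. At 12 h, *Pgls*, *Pgd*, *Taldo1* and *Tkt* had log2 fold changes of 0.88 ± 0.34, 0.78 ± 0.37, 0.70 ± 0.27 and 0.65 ± 0.30, with an adjusted p of 0.508 each. *Pgd* was at 375, 652, 795 and 809 CPM in vehicle and 507, 979.7, 1554 and 1591 CPM with TCDD there, overlapping. These values are listed by size, not in the order of the titles. The tests were unpaired, so any spread shared by title position stayed in their standard errors, as it did in the interaction tests.

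Whether the TCDD response differed by label was tested with an interaction term in each hour's 16 libraries. By edgeR or DESeq2 0 of 72 tests were called (background 0.0016%), with 2 at an unadjusted p under 0.05. These 2 lay at 12 and 96 h, where 977 of 13469 and 1930 of 14771 genes had such a p. Over all genes the number varied by hour, for example 175 of 13981 at 48 h and 2114 of 13333 at 8 h. No member had such a p at 48 or 8 h. The smallest adjusted p of the 72 was 0.347, for *Tkt* at 96 h (PkmΔDRE minus WT label, 0.58 ± 0.25 on the log2 scale). *G6pdx* at 96 h was at 0.90 ± 0.45 (adjusted p = 0.41). The *G6pdx* call under the WT label was therefore not shown to be absent under the other, where the log2 fold change was 0.15 ± 0.41, or -0.14 ± 0.31 without replicate 4 of 96 h vehicle. The *Rpe* interactions at 8 and 96 h were -0.35 ± 0.45 and -0.43 ± 0.40. Without the displaced pair the count stayed at 0.

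In vehicle alone, the labels had 0 of 72 called differences by either tool (background 0.407%, smallest adjusted p 0.359), with 5 at an unadjusted p under 0.05. Over all genes, those with such a p numbered from 446 of 14391 at 120 h to 3206 of 12650 at 12 h. The lowest unadjusted p of the 72 was that of *G6pdx* at 96 h, with 71.6 to 94.5 CPM under the WT label and 12.97, 31.3, 33.8 and 50.04 CPM under the PkmΔDRE label, the first of these being the displaced library. The groups did not overlap, and the log2 difference was -1.33 ± 0.33 (PkmΔDRE minus WT label, adjusted p = 0.792) with that library and -1.08 ± 0.18 (adjusted p = 0.22) without it. At 72 h the *G6pdx* difference was -1.05 ± 0.47 (adjusted p = 0.901).

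Genes around the pathway were read from lists at 72 h against 2 h in WT-labelled vehicle, where 53.8% of all genes tested were called (31.1% upward, 22.8% downward). Of 13 tested pathway neighbours 3 rose and 7 fell, among them *Rgn*, a gluconolactonase (-8.79 ± 0.56), and *Shpk*, the sedoheptulokinase (-3.11 ± 0.28), while *Tigar*, a phosphatase that lowers glycolytic flux (1.5 ± 0.21), rose. At the junction with glycolysis 1 of 14 rose and 5 fell, with *G6pc* and *Fbp1* at -10.49 ± 0.64 and -5.55 ± 0.44. Of 10 other NADPH sources 3 rose and 2 fell, including the folate dehydrogenases *Aldh1l2* (3.90 ± 0.75) and *Aldh1l1* (-4.59 ± 0.36) and the trifunctional enzyme *Mthfd1* (-2.19 ± 0.17). *G6pd2* and *Tktl1*, the paralogs of *G6pdx* and *Tkt*, were at most 0.307 and 0.309 CPM in any library.

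The lists around NADPH use, not all of whose genes use NADPH, were split. Of 9 genes listed as NADPH users in antioxidant defence 5 rose and 3 fell. *Cbr3* was at 3.90 ± 0.64, *Akr1b3* at 2.23 ± 0.31 and the P450 reductase *Por*, also on this list, at -2.45 ± 0.33. Of 13 NRF2 targets 10 rose and 2 fell (median of the list 1.28), led by *Abcc4* (5.86 ± 0.44), *Gsta1* (3.33 ± 0.31) and *Slc7a11* (2.64 ± 0.47). Of 9 lipogenic genes none rose and 8 fell, with *Thrsp*, *Scd1* and *Fasn* at -7.31 ± 0.55, -5.47 ± 1.02 and -2.79 ± 0.23. Of 7 regulators 3 rose and 3 fell, *Hif1a* at 1.43 ± 0.48, *Myc* at -1.77 ± 0.20 and *Bach1* at -1.59 ± 0.36. The 4 oxidative members had 2 rises and 1 fall and the 4 non-oxidative members 3 rises and 1 fall in this comparison.

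With TCDD at 8 h under the WT label 23.8% of all genes tested were called upward and 13.6% downward. Of 13 NRF2 targets 5 rose, including *Slc7a11* (1.68 ± 0.52), *Gclc* (1.53 ± 0.20) and *Txnrd1* (0.77 ± 0.15), and 3 of 7 regulators rose, *Hif1a* (1.53 ± 0.34), *Bach1* (1.5 ± 0.24) and *Nfe2l2* (1.39 ± 0.16), beside 1 of the 8 pathway enzymes. Of 14 junction genes 5 fell, and of 10 other NADPH sources 3 rose and 1 fell (*Idh1* at 0.93 ± 0.23, *Idh2* at -0.79 ± 0.14). Lipogenic genes had 3 rises of 9, led by *Elovl6* (1.68 ± 0.32), antioxidant users 2 rises and 3 falls of 9, and pathway neighbours 2 rises and 1 fall of 13. At 96 h, where 10.1% of all genes tested were called upward and 5% downward, *Nfe2l2*, which encodes NRF2, was the regulator that rose (0.81 ± 0.08). NRF2 targets had 2 rises and 1 fall there (*Nqo1* at 0.95 ± 0.16, *Hmox1* at -1.02 ± 0.11), and none of the 13 neighbours was called.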

How the data were processed

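RNA-Seq was performed on 36 groups of 4 libraries of primary mouse hepatocytes. Per the labels' processing notes, the authors checked reads with FastQC 0.11.3, trimmed them with Trimmomatic 0.39 and aligned them with STAR 2.7 to GRCm39, and they deposited 1 table of raw counts of uniquely mapped pairs per gene and library, without normalization. The study's methods name another release of FastQC. The unstranded count was used. Lines that name no gene held 16.8% to 48.0% of pairs (median 24.2%) and entered neither library sizes nor tests. Symbols (52083 of 55359 genes) and exon lengths came from GENCODE M21 on GRCm38, so levels per kb rest on another annotation than the counts, and exon unions include rare isoforms. Where reads of the paralogs *G6pd2* and *Tktl1* could be shared, the counts of *G6pdx* and *Tkt* are uncertain to that extent.

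Counts were tested with the edgeR 4.0.16 quasi-likelihood test under R 4.3.3 (TMM, filterByExpr with a count minimum of 10 and a total minimum of 15, robust fits, Benjamini-Hochberg over all genes tested). TCDD was compared with vehicle in the 8 libraries of a label and hour, the interaction in 16, each hour with 2 h in the 36 of an arm, and the labels in 8 vehicle libraries. The study's empirical Bayes posterior was not rerun. All 8 members are named. Of the other lists, counts are given with at most 3 called genes (some are not reported here), and the lists were pathway neighbours, the glycolytic junction, other NADPH sources, NADPH users in antioxidant defence, NRF2 targets, lipogenic genes, regulators and cell type markers. The 3 most similar genes are given for 4 members. Members and lists were chosen with earlier results of these data known. Printed CPM use TMM sizes across all libraries. In all 216 pairs of libraries of a group the counts differed by more than sampling noise. Alternatives were RLE scaling, DESeq2 1.42.0, no filter, no fold threshold, a covariate (the share of uniquely mapped pairs that fell on no gene), 1 fit per label, also with 1 surrogate variable (sva 3.50.0), 1 fit of all libraries, and each library left out. The script was tested on simulated data with known changes. Figures were drawn with matplotlib 3.10.9.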

Additional observations from a re-analysis of the deposited data

Results flagged for a closer look

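In 28 of the 288 sets of 4 libraries (8 genes in 36 groups), the highest or lowest library stood apart from the other 3 by more than Dixon's 95% critical value for 4 values. Chance flags about 1 set in 20. Several of these values came from the same libraries. In WT-labelled vehicle at 72 h, replicate 3 was high in *G6pdx* (344.7 CPM) and *Taldo1* (821.2 CPM), and replicate 4 in *H6pd* (1409 CPM) and *Pgls* (61.9 CPM). In WT-labelled TCDD at 2 h, replicate 4 was high in *H6pd* (1736 CPM) and *Pgls* (119.3 CPM), while replicate 3 was low in *G6pdx* (7.031 CPM) and high in *Rpia* (39.96 CPM). In WT-labelled TCDD at 12 h, replicate 2 was high in *Pgd* (862.8 CPM) and *Tkt* (657.7 CPM). At 120 h in the same arm, replicate 3 was high in *H6pd* (1479 CPM) and low in *Tkt* (581.2 CPM). In PkmΔDRE-labelled TCDD at 96 h, replicate 1 was high in *G6pdx* (62.72 CPM) and *Pgls* (69.44 CPM), and replicate 3 in *Rpia* (7.061 CPM).

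The remaining values came 1 to a library. Under the WT label they were vehicle *G6pdx* at 2 h (24.27 CPM), *Pgd* at 4 h (760.5 CPM), *Tkt* at 12 h (636.4 CPM) and *Pgls* at 24 h (91 CPM), and TCDD *Taldo1* at 24 h (274.5 CPM). Under the PkmΔDRE label they were vehicle *Taldo1* at 2 h (297 CPM), *G6pdx* at 4 h (42.37 CPM, in the displaced pair), *Rpe* at 48 h (33.34 CPM) and *Tkt* at 96 h (858.3 CPM), and with TCDD *Pgd* at 2 h (354.6 CPM), *H6pd* at 2 h (886.8 CPM), *G6pdx* at 24 h (24.71 CPM) and *Rpe* at 120 h (27.6 CPM). All were high but *H6pd* at 2 h and *G6pdx* at 24 h in PkmΔDRE-labelled TCDD libraries, which were low.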

How the results depend on the processing

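Of the called log2 fold changes of single members, none changed sign under RLE scaling, DESeq2, no filter, the covariate or a left-out library, and 6, 3, 6 and 8 of them lost the call under the first 4. In 4696 of 4920 fits with 1 library left out the call was kept. RLE and DESeq2 size factors moved the log2 fold changes against 2 h by at most 0.14, with a change of sign in uncalled values only. *Rpe* with TCDD at 8 h under the WT label became -0.14 with 1 surrogate variable. Of the 3 TCDD calls under the WT label, 1 was kept in 1 fit of the label's libraries, which called *Pgls* and *Tkt* at 8 h in place of the other 2. The count was 0 with the surrogate variable, 7 with the covariate (the share of uniquely mapped pairs on no gene), 11 without the fold threshold and 2 to 5 with a library left out. At 8 h that covariate did not overlap between TCDD and vehicle libraries, so its fit there cannot tell the share and the treatment apart. With a library left out, the count was 2 without, for example, TCDD replicate 4 of 8 h. It was 5 without vehicle replicate 4 or TCDD replicate 1 of 8 h. Under the PkmΔDRE label it was 1 (*Rpia* at 96 h) in 1 fit of the label's libraries, with or without the surrogate variable, and 0 to 0 with a library left out, as were the interaction and the difference between labels in vehicle. Counts of calls with time were 30 to 37 (WT label, vehicle), 34 to 39 (WT label, TCDD), 15 to 23 (PkmΔDRE label, vehicle) and 29 to 35 (PkmΔDRE label, TCDD) with a library left out. The causes of these shifts were not tested. The change in the log2 branch ratio from 2 to 72 h was -0.42 (WT label, vehicle), -0.46 (WT label, TCDD), -0.38 (PkmΔDRE label, vehicle) and -0.44 (PkmΔDRE label, TCDD). Without *H6pd* it was 0.56, 0.70, 0.58 and 0.43, since that gene leaves the oxidative sum. Without *Taldo1* it was -0.63, -0.74, -0.73 and -0.81, and without *Tkt* -0.26, -0.23, -0.17 and -0.18, in the same order. With a library left out it ran from -0.48 to -0.25 and from -0.55 to -0.33 under the WT label and from -0.44 to -0.30 and from -0.54 to -0.35 under the PkmΔDRE label. Leaving out together the 5 WT-labelled libraries named first for *Cyp1a1* or strand shares, which are not all that stood apart, or the displaced pair together, was chosen after seeing the data. The first gave 36 calls with time in WT-labelled TCDD libraries in place of 38, and the second 21 in PkmΔDRE-labelled vehicle in place of 19, with all other counts unchanged. No paired analysis was possible because the labels give no replicate number, and whether the order of the titles would pair libraries was not tested. Any spread shared by title position stays in the standard errors of these unpaired tests. Counts of 0 called therefore do not show that a response or a difference was absent. Depth limits *Rpe* and *Rpia* most, with counts down to 24 and 70 pairs in a library.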
